A study of Mus musculus with 12 samples.

Results

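The 10 genes described here were grouped as genes of tissues other than the kidney, and their transcripts were followed across mouse kidneys of 3 genotypes. They are Crisp1, Fgf15, Spock1, Npy6r, Asic4, Vsig1, Disp2, Gng4, Ppp2r2c and Vwa5b1. They were chosen because their levels had been seen to be higher in the kidneys with both the Grhl2 knockout and Myc overexpression, so the values of that contrast are the reason for the choice and are given as a description. The deposited table lists 46403 genes, 23742 of them passed the filter on low counts, and all 10 were among these. The working name for the set was ectopic transcripts gained without Grhl2. The counts did not bear this out in the strict sense, because each of the 10 genes had at least 1 count in all 12 libraries, wildtype included. Grhl2 transcripts were also still present in the knockout libraries. Whole kidney includes cells that were not targeted, so these Grhl2 reads do not measure its loss in the targeted cells. The set is therefore described as 10 genes with more transcript in the combined group.

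Polyadenylated RNA of the entire right kidney was sequenced in 12 libraries from 3 groups of untreated mice. Grhl2KO_Myc kidneys (n = 4) came from a cross of HoxB7-Cre with 1 floxed Grhl2 allele (Grhl2flox/+) to R26StopFLMYC with 2 floxed alleles (Grhl2flox/flox), and are labelled as Grhl2 knockout with Myc overexpression. HoxB7-Cre acts in the ureteric bud and in the collecting duct that grows from it, so the rest of the kidney in these animals was not targeted. Myc kidneys (n = 3) are labelled as Myc overexpression, and the sources used here give neither their cross nor their Grhl2 alleles. Their library identifiers contain HET. Wildtype kidneys (n = 5) are defined by the submitters as R26StopFLMYC with Grhl2 flox/flox, which means a floxed Grhl2 gene and a silent MYC transgene without a stated Cre. Kidneys with only the Grhl2 knockout were not analysed here, so Grhl2KO_Myc minus Myc is the nearest comparison to the loss of Grhl2, and any difference in Grhl2 alleles of the Myc group enters it. The sources used here give no age for the mice. Whether libraries of 1 group stem from different mice is not stated in the labels, so p-values reflect no more than the spread among these samples.

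GRHL2 is a transcription factor of epithelial cells that binds DNA directly and holds up genes of cell junctions and epithelial identity. In the kidney it is known from the ureteric bud, the collecting duct and the distal nephron. The 10 genes have no pathway in common. Their products are secreted or matrix proteins (CRISP1, FGF15, testican-1), cell surface proteins (NPY6R, ASIC4, VSIG1, DISP2) and signalling subunits inside the cell (GNG4, PPP2R2C), with VWA5B1 left without a role here.

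The promoters of 4 of the genes are printed because they show how unlike the start sites within the set are. Each runs from 250 bases before to 50 bases after the start on the strand of the gene, taken from RefSeq on GRCm38.p6, the build also called mm10, and the capitals mark each CpG and each TATAAA. Such a stretch includes the first bases of the transcript. Crisp1 lies at chr17:40319158-40319457 on the minus strand, Vsig1 at chrX:140907358-140907657 on the plus strand, Spock1 at chr13:57908283-57908582 on the minus strand and Ppp2r2c at chr5:36868260-36868559 on the plus strand.
Crisp1: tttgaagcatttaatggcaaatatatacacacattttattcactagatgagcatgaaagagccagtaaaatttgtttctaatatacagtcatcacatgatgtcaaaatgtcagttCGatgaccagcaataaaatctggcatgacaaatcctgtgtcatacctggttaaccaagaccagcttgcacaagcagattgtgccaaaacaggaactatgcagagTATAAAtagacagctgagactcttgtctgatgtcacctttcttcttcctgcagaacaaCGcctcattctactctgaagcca
Vsig1: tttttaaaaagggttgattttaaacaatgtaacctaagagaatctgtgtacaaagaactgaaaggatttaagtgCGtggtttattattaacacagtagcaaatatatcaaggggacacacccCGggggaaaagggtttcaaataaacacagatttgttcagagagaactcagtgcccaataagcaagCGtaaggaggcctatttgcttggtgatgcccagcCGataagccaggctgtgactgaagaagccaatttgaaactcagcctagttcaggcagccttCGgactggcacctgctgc
Spock1: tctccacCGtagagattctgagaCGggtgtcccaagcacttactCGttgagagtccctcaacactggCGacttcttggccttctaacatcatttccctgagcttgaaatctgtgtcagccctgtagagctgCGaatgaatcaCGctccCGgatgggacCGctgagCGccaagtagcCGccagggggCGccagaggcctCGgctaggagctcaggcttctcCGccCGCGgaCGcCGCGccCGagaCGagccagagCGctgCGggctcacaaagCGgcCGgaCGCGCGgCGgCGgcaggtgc
Ppp2r2c: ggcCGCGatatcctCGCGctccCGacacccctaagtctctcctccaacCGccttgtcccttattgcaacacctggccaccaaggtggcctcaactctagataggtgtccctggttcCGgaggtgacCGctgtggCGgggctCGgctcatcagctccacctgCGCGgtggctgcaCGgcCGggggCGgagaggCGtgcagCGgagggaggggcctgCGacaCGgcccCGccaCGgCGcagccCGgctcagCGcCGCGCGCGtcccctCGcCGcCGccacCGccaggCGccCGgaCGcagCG
The Crisp1 promoter had a GC content of 38.7% with 2 CpG, and the Ppp2r2c promoter had 72.7% with 36 CpG. Vsig1 had 43.3% with 5 CpG and Spock1 64.0% with 29 CpG, against medians of 52.7% and 7 CpG over the 32851 promoters of the table. Vwa5b1 had 46.7% with 3 CpG. Its listed promoter lies at chr4:138623943-138624242 on the minus strand, inside the gene span, which reaches 138635884 in GENCODE M21. Its values therefore hold for that RefSeq start and may not describe the outermost start of the gene. The 2 promoters listed for Gng4 had 58.3% with 17 CpG and 71.3% with 29 CpG. Fgf15, Asic4, Disp2 and Npy6r are named only. The motifs searched, each on both strands, were AACNGGTT, the core that grainyhead factors bind, CACGTG, the E-box of MYC and MAX, and TATAAA, the TATA box. AACNGGTT and CACGTG were in none of these promoters, and 2.09% and 7.15% of all promoters in the table hold them. TATAAA was in the Crisp1 promoter alone, 31 bases before the start, against 13.6% of all promoters. A match or its lack in these 300 bases says nothing about binding elsewhere.

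Levels are given as CPM, counts scaled to a library total of 1e6 after TMM scaling. Fold changes are log2 values from edgeR, and SE stands for their standard error. Grhl2 was at 18.5, 19.0, 24.3 and 22.3 CPM in Grhl2KO_Myc libraries 1 to 4, and it had 28.5, 33.0 and 28.2 CPM in the 3 Myc libraries, with wildtype libraries at 29.2, 24.9, 25.6, 23.9 and 25.2 CPM. It was lower in Grhl2KO_Myc than in Myc (log2 fold change -0.51, SE 0.10, edgeR adjusted p = 0.0443), with all 4 Grhl2KO_Myc libraries below all 3 Myc libraries. That call was lost in 12 of 21 alternatives, with adjusted p between 0.000951 and 0.21, among them the fits without Grhl2KO_Myc 1, 2 or 4, without Myc 1, 2 or 3 and without wildtype 2, 3 or 5. Against wildtype the log2 fold change was -0.29 (SE 0.09, edgeR adjusted p = 0.0816). Total counts lay between 52973520 and 108164810 per library, so that 1 CPM stood for 52.8 to 110 reads.

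Crisp1 (ENSMUSG00000025431.4, chromosome 17, 40293758 to 40319207, minus strand) encodes a cysteine-rich secretory protein that the epididymis adds to sperm. It was at 20.6, 28.5, 36.8 and 25.9 CPM in Grhl2KO_Myc libraries 1 to 4, at 1.32, 1.35 and 1.77 CPM in the Myc libraries, and wildtype libraries 1 to 5 had 1.87, 1.76, 2.26, 3.53 and 2.27 CPM. The groups stood wide apart, with the lowest Grhl2KO_Myc library 11.6-fold above the highest Myc library and 5.83-fold above the highest wildtype library. The means were 28.0 ± 6.77 CPM in Grhl2KO_Myc (SD, n = 4), 1.48 ± 0.254 CPM in Myc (n = 3) and 2.34 ± 0.703 CPM in wildtype (n = 5). The log2 fold change was 3.58 (SE 0.22) over wildtype, rank 12 from the top among 23742 genes, and 4.24 (SE 0.28) over Myc, rank 7. Crisp1 was also the most abundant of the set per length, at 19.7 CPM per kb of exon in Grhl2KO_Myc, 1.04 in Myc and 1.65 in wildtype.

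Fgf15 (ENSMUSG00000031073.6, chromosome 7, 144896531 to 144900953, plus strand) encodes the mouse hormone that the ileum releases in response to bile acids and that lowers bile acid synthesis in the liver. Its levels were 1.73, 2.46, 3.13 and 4.50 CPM in Grhl2KO_Myc libraries 1 to 4, 0.415, 0.330 and 0.577 CPM in Myc libraries and 0.485, 0.358, 0.404, 0.250 and 0.757 CPM in wildtype libraries. All Grhl2KO_Myc libraries were above all others, and the Myc and wildtype libraries lay within the same range. The means were 2.95 ± 1.18 CPM in Grhl2KO_Myc, 0.440 ± 0.126 CPM in Myc and 0.451 ± 0.191 CPM in wildtype, a log2 fold change of 2.74 (SE 0.33) over wildtype and 2.73 (SE 0.39) over Myc. The antisense model Gm26793 overlaps Fgf15, and the library kit does not mark strand, so reads of the overlap cannot be given to either. Gm26793 was at 1.25, 1.20, 1.65 and 2.10 CPM in Grhl2KO_Myc libraries, at 0.118, 0.129 and 0.259 CPM in Myc libraries and at 0.341, 0.194, 0.260, 0.180 and 0.379 CPM in wildtype libraries. Like Fgf15, it was higher in all 4 Grhl2KO_Myc libraries than in any other and highest in Grhl2KO_Myc 4.

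Spock1 (ENSMUSG00000056222.15, chromosome 13, 57421195 to 57908332, minus strand) encodes testican-1, a secreted proteoglycan of the SPARC family known from the extracellular matrix of the brain. It was at 1.33, 3.50, 1.58 and 1.20 CPM in Grhl2KO_Myc libraries, at 0.284, 0.530 and 0.259 CPM in Myc libraries and at 0.359, 0.439, 0.519, 0.930 and 0.341 CPM in wildtype libraries. Library Grhl2KO_Myc 2 stood far above the other 3 of its group, and the lowest of the group was 1.29-fold above the highest wildtype library. Its log2 fold change was 1.86 (SE 0.38) over wildtype and 2.42 (SE 0.47) over Myc. Without Grhl2KO_Myc 2 the values were 1.39 and 1.95.

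Npy6r (ENSMUSG00000038071.3, chromosome 18, 44270127 to 44277700, plus strand) encodes the Y6 receptor, a G protein coupled receptor of the neuropeptide Y family that is intact in mice. Its levels were 1.91, 2.46, 2.89 and 1.85 CPM in Grhl2KO_Myc libraries, 0.652, 0.688 and 0.865 CPM in Myc libraries and 0.881, 1.11, 0.591, 0.403 and 0.985 CPM in wildtype libraries. This was the smallest difference of the set over wildtype, with a log2 fold change of 1.52 (SE 0.26), and the groups still did not overlap. Over Myc it was 1.63 (SE 0.31).

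Asic4 (ENSMUSG00000033007.15, chromosome 1, 75450436 to 75474343, plus strand) encodes a member of the acid-sensing ion channel family, known from brain and pituitary, that does not form a proton-gated channel by itself. It was at 2.79, 3.85, 4.01 and 3.39 CPM in Grhl2KO_Myc libraries, at 0.723, 0.975 and 0.925 CPM in Myc libraries and at 1.06, 0.889, 0.880, 0.944 and 0.757 CPM in wildtype libraries. Asic4 had the smallest spread of the 10 genes in Grhl2KO_Myc, with an SD of 15.6% of the mean, and in wildtype, with 12.1%. In Myc its SD was 15.3% of the mean, and that of Gng4 was smaller at 10.1%. Its log2 fold change was 1.95 (SE 0.15) over wildtype and 2.01 (SE 0.18) over Myc. The model Gm37264 lies on the other strand within the span of Asic4. It was at 0.839 to 1.23 CPM in Grhl2KO_Myc libraries, 0.328 to 0.430 CPM in Myc libraries and 0.236 to 0.359 CPM in wildtype libraries. Whether Gm37264 shares exon bases with Asic4 was not checked, and reads of any shared bases cannot be given to either.

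Vsig1 (ENSMUSG00000031430.8, chromosome X, 140907608 to 140939472, plus strand) encodes a junctional protein with immunoglobulin domains known from the glandular epithelium of the stomach and from testis. It was at 1.19, 1.29, 2.76 and 2.68 CPM in Grhl2KO_Myc libraries, at 0.450, 1.09 and 0.925 CPM in Myc libraries and at 0.467, 0.174, 0.115, 0.888 and 0.379 CPM in wildtype libraries. The group limits came close, since the lowest Grhl2KO_Myc library was only 1.09-fold above the highest Myc library and 1.34-fold above the highest wildtype library. For Vsig1 the log2 fold change was 2.31 (SE 0.50) over wildtype and 1.28 (SE 0.56) over Myc.

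Disp2 (ENSMUSG00000040035.14, chromosome 2, 118779719 to 118811293, plus strand) encodes a membrane protein related to Dispatched 1, which releases Hedgehog ligands from cells. Its levels were 0.671, 4.44, 1.09 and 0.474 CPM in Grhl2KO_Myc libraries, 0.154, 0.172 and 0.209 CPM in Myc libraries and 0.108, 0.0613, 0.115, 0.0972 and 0.0189 CPM in wildtype libraries. The wildtype levels rest on 6, 6, 8, 7 and 1 counts, so their error is large, and Grhl2KO_Myc 2 alone held 333 of the 539 counts of its group. The log2 fold change was 4.33 (SE 0.68) over wildtype, rank 4 from the top, and 3.20 (SE 0.74) over Myc. Without Grhl2KO_Myc 2 it was 3.18 (SE 0.39) and 2.04 (SE 0.42).

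Gng4 (ENSMUSG00000021303.14, chromosome 13, 13784059 to 13827896, plus strand) encodes a gamma subunit of heterotrimeric G proteins. It was at 0.981, 2.21, 2.77 and 2.45 CPM in Grhl2KO_Myc libraries, at 1.02, 1.22 and 1.22 CPM in Myc libraries and at 0.359, 0.429, 0.476, 0.666 and 0.454 CPM in wildtype libraries. Gng4 alone of the 10 genes overlapped between Grhl2KO_Myc and Myc, because Grhl2KO_Myc 1 lay below all 3 Myc libraries. The means stepped down over the groups, with 2.11 ± 0.784 CPM in Grhl2KO_Myc, 1.15 ± 0.117 CPM in Myc and 0.477 ± 0.114 CPM in wildtype. The log2 fold change was 2.14 (SE 0.27) over wildtype and 0.87 (SE 0.30) over Myc.

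Ppp2r2c (ENSMUSG00000029120.10, chromosome 5, 36868513 to 36955078, plus strand) encodes a B55 regulatory subunit of protein phosphatase 2A that is known from the brain. It was at 0.903, 1.45, 1.02 and 0.766 CPM in Grhl2KO_Myc libraries, at 0.166, 0.330 and 0.229 CPM in Myc libraries and at 0.377, 0.255, 0.216, 0.167 and 0.322 CPM in wildtype libraries. The lowest Grhl2KO_Myc library was 2.32-fold above the highest Myc library and 2.03-fold above the highest wildtype library. The log2 fold change was 1.96 (SE 0.28) over wildtype and 2.10 (SE 0.33) over Myc.

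Vwa5b1 (ENSMUSG00000028753.12, chromosome 4, 138565360 to 138635884, minus strand) encodes a protein with a von Willebrand factor A domain. Its levels were 0.826, 1.16, 1.85 and 1.49 CPM in Grhl2KO_Myc libraries, 0.332, 0.459 and 0.438 CPM in Myc libraries and 0.306, 0.358, 0.404, 0.180 and 0.322 CPM in wildtype libraries. No library of Grhl2KO_Myc reached down to the others, and Myc and wildtype overlapped. This gave a log2 fold change of 2.08 (SE 0.27) over wildtype and 1.70 (SE 0.31) over Myc.

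**Figure D1:**
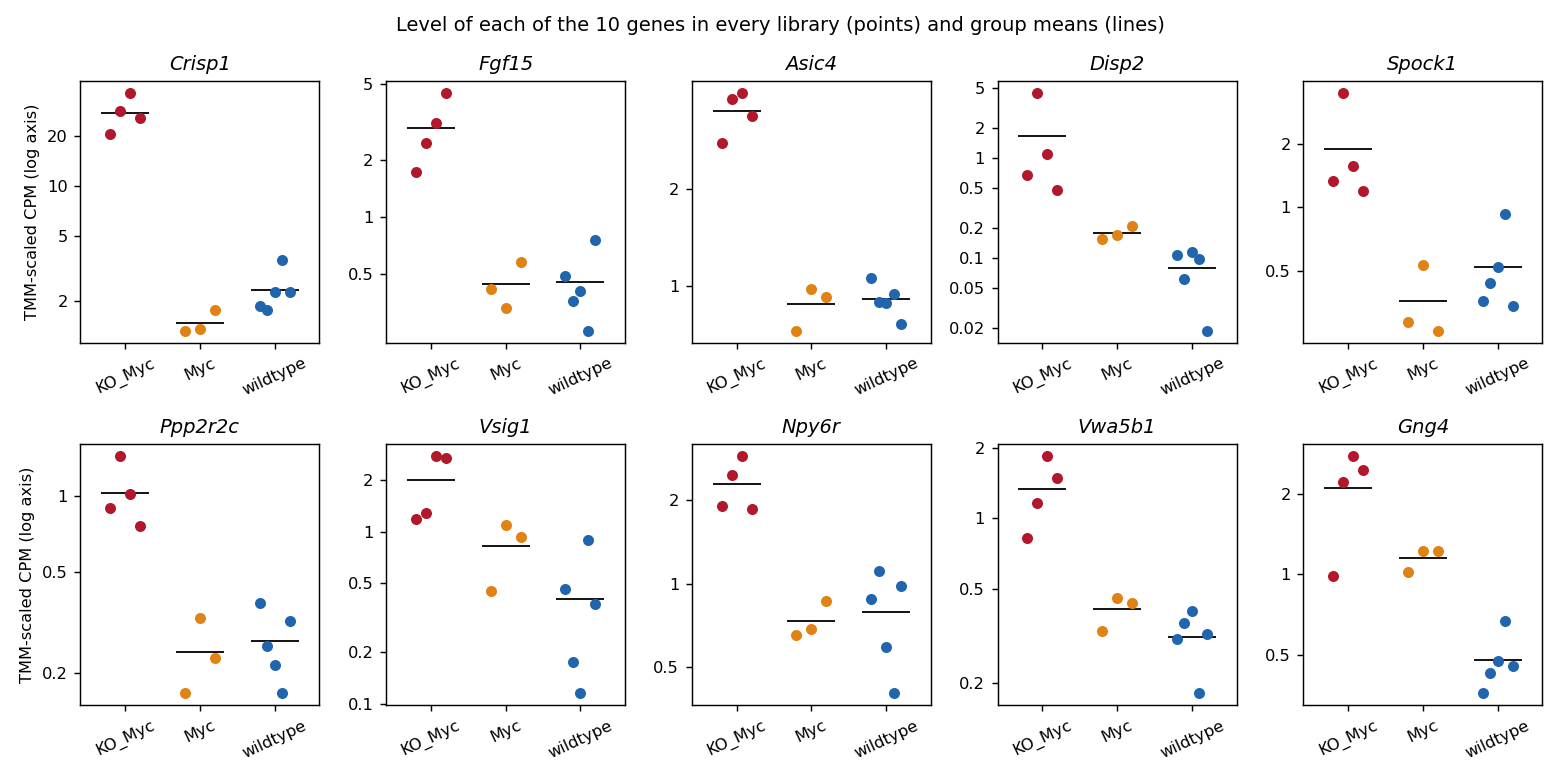
TMM-scaled CPM on a log axis for each of the 10 genes, with 1 point per library and a line at the mean of each group (KO_Myc stands for Grhl2KO_Myc). Crisp1 separates the groups most widely, from 20.6 CPM up in Grhl2KO_Myc against at most 3.53 CPM elsewhere, and Gng4 shows Grhl2KO_Myc 1 at 0.981 CPM below the Myc libraries.

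Per length, the order of the mean levels in Grhl2KO_Myc was Crisp1 at 19.7 CPM per kb, Fgf15 at 1.63, Asic4 at 1.29, Npy6r at 0.888, Vsig1 at 0.716, Gng4 at 0.652, Ppp2r2c at 0.233, Spock1 at 0.228, Disp2 at 0.175 and Vwa5b1 at 0.170. Crisp1 stood clear of the rest in every Grhl2KO_Myc library. The libraries of each later pair of neighbours in this order overlapped. These values use the exon width in the deposited table, which for Fgf15 is 1809 bases against 3058 bases in the GENCODE M21 annotation.

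Over wildtype, the 10 log2 fold changes ran between 1.52 and 4.33 with a median of 2.11, against -0.007 over all 23742 genes tested. Over Myc they ran between 0.87 and 4.24 with a median of 2.05, against 0.002. These medians follow from how the genes were chosen. All 10 passed an edgeR adjusted p of 0.05 over wildtype, where 6.67% of all genes did so in either direction and 4.06% as higher. Over Myc 7 passed, all but Disp2, Vsig1 and Gng4, where 0.842% of all genes did so and 0.358% as higher. Groups did not overlap for 10 genes over wildtype and 9 over Myc, where 5.67% and 8.95% of all genes were higher in this way. Nothing is read from these counts, since the same contrast chose the genes, and the 2 comparisons share the Grhl2KO_Myc libraries. In whole kidney, more cells that make a transcript and more transcript per cell cannot be told apart.

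**Figure D2:**
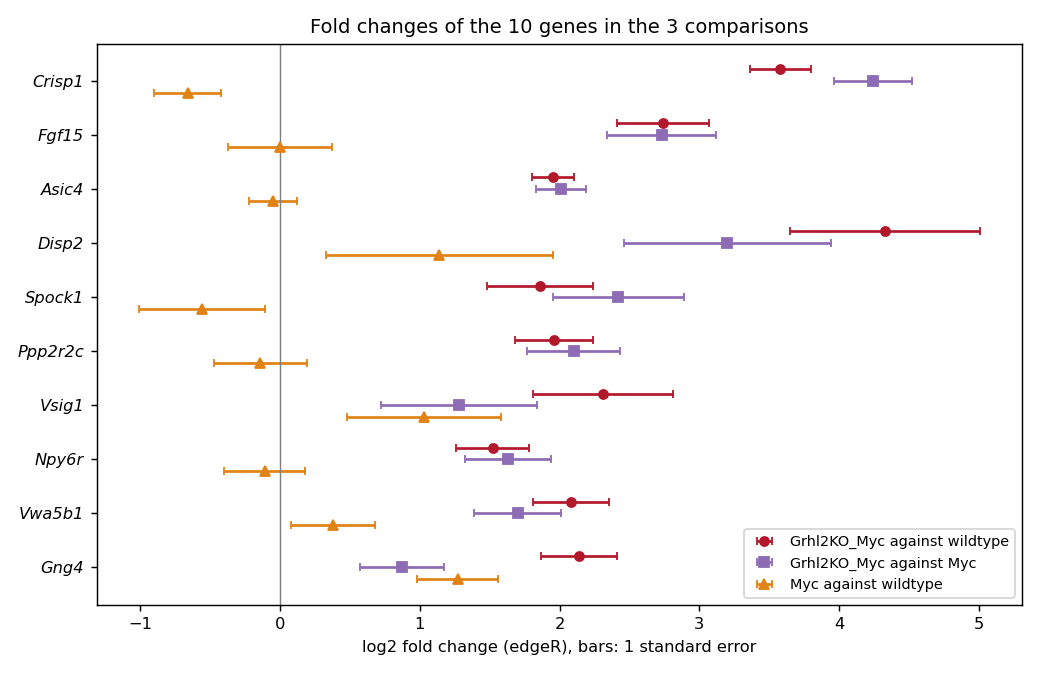
Log2 fold change of each gene in the 3 comparisons, with bars of 1 standard error from the edgeR fit. Grhl2KO_Myc against wildtype and against Myc lie close for Fgf15 (2.74 and 2.73) and Asic4 (1.95 and 2.01), while Gng4 and Vsig1 are the genes whose value against Myc is smallest (0.87 and 1.28).

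Whether Myc overexpression by its label was enough for a difference was asked by setting Myc against wildtype. This comparison did not itself choose the genes, but the libraries of both its groups entered the contrasts with Grhl2KO_Myc that did. Such a choice favours genes that are low in both groups, so the values here are given as a description. None of the 10 genes passed an edgeR adjusted p of 0.05, and 0.00421% of all genes did, which is 1 gene, Krt4. At an unadjusted p of 0.05, 2 of the 10 genes passed, Gng4 and Crisp1, beside 1098 genes in all, and DESeq2 called 1 of the 10, Gng4. The median log2 fold change of the 10 was -0.02 against 0.0 over all genes, with 5 of 10 above 0. Gng4 was 2.42-fold higher in Myc than in wildtype, or 1.27 on the log2 scale (SE 0.29, edgeR adjusted p = 0.541, DESeq2 adjusted p = 0.0422) and all 3 Myc libraries above all 5 wildtype libraries. Crisp1 stood at -0.66 on the log2 scale (SE 0.24, edgeR adjusted p = 0.999), with overlapping groups. Disp2 was higher in all 3 Myc libraries than in any wildtype library, at 1.14 on the log2 scale (SE 0.81, adjusted p = 0.999), on 46 against 28 counts in all. Such a separation, higher in Myc, held for 2 of the 10 genes and for 2.22% of all genes. The remaining values were 1.03 (SE 0.55) for Vsig1, 0.38 (SE 0.30) for Vwa5b1, 0.00 (SE 0.37) for Fgf15, -0.05 (SE 0.17) for Asic4, -0.11 (SE 0.29) for Npy6r, -0.14 (SE 0.33) for Ppp2r2c and -0.56 (SE 0.45) for Spock1. These p-values do not show that the levels of the 2 groups were alike.

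The 4 Grhl2KO_Myc libraries did not rank the genes alike. Grhl2KO_Myc 3 was the highest of its group for 6 genes, Grhl2KO_Myc 2 for 3 (Disp2, Spock1 and Ppp2r2c) and Grhl2KO_Myc 4 for 1 (Fgf15). Grhl2KO_Myc 1 was the lowest for 6 genes and Grhl2KO_Myc 4 for 4. Measured as the root mean square distance of a standardised profile over the 12 libraries from the mean profile of the set, Asic4 was nearest (0.164) and Vsig1 farthest (0.637), with Gng4 (0.553) and Spock1 (0.531) next.

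**Figure D3:**
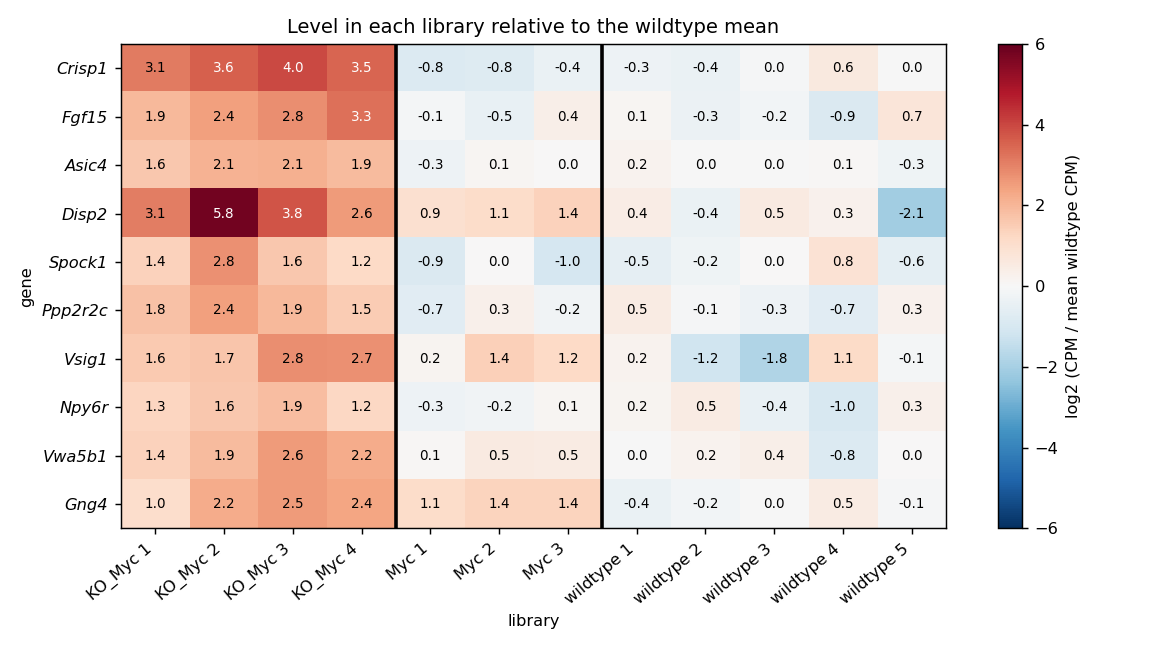
Log2 ratio of the CPM in each library to the mean wildtype CPM of the same gene, for the 10 genes (rows) and 12 libraries (columns), with the ratio printed in each cell. The 4 Grhl2KO_Myc columns lie between 1.04 and 5.79, the 3 Myc columns between -1.0 and 1.43 and the 5 wildtype columns between -2.08 and 1.13.

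Library Grhl2KO_Myc 2 differed from all others in transcripts of nerve and chromaffin cells. Chga and Chgb, which encode granule proteins of neuroendocrine cells, were at 22.9 and 26.4 CPM there, against 0.16 to 0.76 and 0.119 to 1.21 CPM in the other 11 libraries. Dbh and Th, enzymes of noradrenaline synthesis, were at 13.6 and 4.92 CPM, against at most 0.514 and 0.361 CPM in the other libraries. Dbh and Th were picked after their values were seen. The 20 genes of the neuron and neuroendocrine list summed to 183 CPM in Grhl2KO_Myc 2 against 49.8 to 81.1 CPM in the other libraries. This is the library in which Disp2 and Spock1 were highest, and the part of such transcripts in those 2 values was not tested. The median log2 fold change of all 10 genes without this library was 2.13 over wildtype and 1.92 over Myc.

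**Figure D4:**
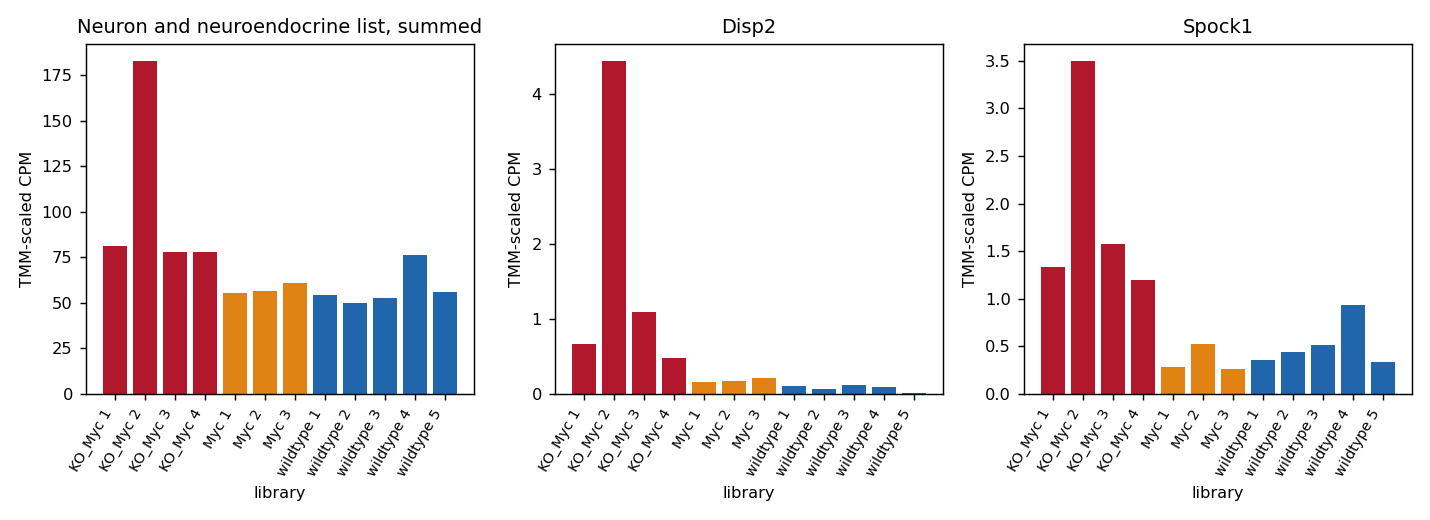
TMM-scaled CPM in each library, as bars from 0, for the sum of the 20 neuron and neuroendocrine genes, for Disp2 and for Spock1. Grhl2KO_Myc 2 has the highest bar in all 3 panels, at 183, 4.44 and 3.50 CPM, and the other Grhl2KO_Myc libraries stay above the Myc and wildtype libraries for both genes.

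Kidney markers were present in every library, and 3 libraries stood apart by them. The 25 proximal tubule markers summed to 1860 to 4970 CPM in Grhl2KO_Myc, 4120 to 5460 CPM in Myc and 1800 to 6540 CPM in wildtype, with none at 0, and 0 rose and 2 fell over wildtype by edgeR, where 4 had an unadjusted p under 0.05 and DESeq2 called 2. Grhl2KO_Myc 3, Grhl2KO_Myc 4 and wildtype 4 were the lowest by the mean log2 level of the list. Vsig1 was highest in just these libraries within their groups, at a mean of 2.72 CPM against 1.24 CPM in the other 2 libraries of Grhl2KO_Myc, and at 0.888 CPM against a mean of 0.284 CPM in the other 4 of wildtype. Without the 3 libraries the log2 fold change of Vsig1 over Myc was 0.59 (SE 0.48), and with the proximal tubule level as a covariate it was 0.44 (SE 0.39). For Gng4 over Myc the same values were 0.46 (SE 0.30) and 0.53. Over wildtype, leaving out the 3 libraries gave 2.08 for Fgf15, 1.5 for Vwa5b1, 2.52 for Spock1 and 5.03 for Disp2, and the other 6 genes moved by at most 0.26. By edgeR, 0 of the 15 principal cell markers rose and 3 fell over wildtype, of the 15 intercalated cell markers 1 rose and 1 fell, and of the 13 urothelial genes tested 2 rose and 0 fell. These calls were 20%, 13.3% and 15.4% of the lists, against 6.67% of all genes. The principal cell genes that fell were Elf5, Aqp4 and Avpr2 (log2 fold changes of -1.90, -1.29 and -0.93). The same 3 fell over Myc by edgeR, 20% of the list against 0.842% of all genes. At an unadjusted p under 0.05 over wildtype these lists held 10, 5 and 3 genes, and DESeq2 called 6, 4 and 2. Of all 23742 genes tested, 5212 had an unadjusted p under 0.05 over wildtype. In the principal cell list DESeq2 added Fxyd4 as lower and Aqp3 and Hsd11b2 as higher. Their log2 fold changes were -0.30, 0.34 and 0.75 in edgeR (adjusted p = 0.0703, 0.096 and 0.0661). The Y-linked gene Ddx3y was above 10 CPM in 2 Grhl2KO_Myc, 1 Myc and 1 wildtype library, and a term for it left the median of the 10 genes at 2.15 over wildtype and 2.07 over Myc. Xist was at 871 CPM in Grhl2KO_Myc 2, at 928 and 1010 CPM in Myc 1 and 2 and at 892 to 962 CPM in wildtype 1 to 4. It was at most 1.89 CPM in every other library, so the groups were not balanced for it. The Ddx3y term placed Grhl2KO_Myc 3, which was low in both, with the libraries high in Xist.

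Genes of the same families and pathways were counted to see whether each of the 10 differed alone or with its relatives. These relatives were not used to choose the 10. Their lists were drawn up with earlier results of these data known, so the shares are a description. Of 94 relatives tested, 6 rose and 3 fell by edgeR in Grhl2KO_Myc over wildtype, which is 9.57% against 6.67% of all genes (4.06% higher and 2.61% lower), with a median log2 fold change of -0.04. Over Myc 2 rose and 0 fell by edgeR, which is 2.13% against 0.842% of all genes (0.358% higher and 0.484% lower). At an unadjusted p under 0.05 there were 23 relatives over Myc, beside 3161 of all 23742 genes tested. Over wildtype there were 25 relatives at such a p, beside 5212 of all genes. Over Myc DESeq2 called 8 relatives, among them Fgfr3 as lower. Beside Crisp1, 0 of 6 tested members of the CRISP family passed in edgeR, 1 had an unadjusted p under 0.05 and DESeq2 called 1, Pi15. Crisp4, another secretory protein of the epididymis, was at 0 in all libraries. Beside Fgf15, 3 of 11 genes of its hormone axis passed, and these were receptors. Nr1h4, the bile acid receptor that drives Fgf15 in the ileum, did not (adjusted p = 0.793), at 12.8 ± 5.42 CPM in Grhl2KO_Myc and 14.3 ± 4.5 CPM in wildtype. The FGF receptors Fgfr1 (-0.24, adjusted p = 0.0355), Fgfr3 (-0.42, adjusted p = 0.0135) and Fgfr4 (-0.25, adjusted p = 0.0254) fell. Klb, the co-receptor of FGF15, was at 0.196 ± 0.0662 CPM in Grhl2KO_Myc and 0.337 ± 0.144 CPM in wildtype (adjusted p = 0.268).

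Spock3, another testican, rose, with 5.15 ± 0.66 CPM in Grhl2KO_Myc, 2.78 ± 0.295 CPM in Myc and 2.49 ± 0.241 CPM in wildtype, and it was 1 of 2 relatives called over both (log2 fold change 1.05, SE 0.11, edgeR adjusted p = 0.000311 over wildtype and 0.89, SE 0.13, adjusted p = 0.0069 over Myc). Without Myc 3 the edgeR adjusted p over Myc was 0.0514, the highest of its 21 alternatives. The other was Vwa5b2, the closest relative of Vwa5b1 by name, at 2.48 ± 0.273 CPM in Grhl2KO_Myc, 1.19 ± 0.179 CPM in Myc and 1.21 ± 0.159 CPM in wildtype (1.03, SE 0.14, edgeR adjusted p = 0.00114 and 1.05, SE 0.16, adjusted p = 0.00815). Beside Asic4, 2 of 7 channel genes rose. Asic1, a proton-gated channel subunit, was at 7.58 ± 0.502 CPM in Grhl2KO_Myc and 5.50 ± 0.388 CPM in wildtype (log2 fold change 0.46, adjusted p = 0.00508). Asic5, a channel known to open with bile acids in rodents, was at 0.824 ± 0.187 CPM in Grhl2KO_Myc and 0.243 ± 0.0888 CPM in wildtype (1.74, adjusted p = 0.014). The epithelial sodium channel subunits Scnn1a, Scnn1b and Scnn1g did not pass in edgeR (adjusted p = 0.0561, 0.817 and 0.203), while DESeq2 called Scnn1a, with a log2 fold change of -0.76 in edgeR. Of 14 Hedgehog genes beside Disp2 only Shh passed in edgeR. Shh, the ligand made in the collecting duct and ureter, rose (log2 fold change 0.75, adjusted p = 0.0362), at 6.53 ± 0.722 CPM in Grhl2KO_Myc and 3.88 ± 0.973 CPM in wildtype, and Disp1 was at 28.2 ± 2.36 and 28.9 ± 3.0 CPM in these groups. Gng7 rose among 15 other G protein beta and gamma subunits (0.42, adjusted p = 0.0318). None of 13 subunits of protein phosphatase 2A, 13 relatives of Vsig1 and 4 genes of neuropeptide Y ligands and receptors passed in edgeR. At an unadjusted p under 0.05 these counts were 2, 4 and 0, beside 5212 of all 23742 genes tested, and DESeq2 called 0, 1 (Vsig10) and 0. The calls of Asic1, Spock3 and Vwa5b2 over wildtype held in all 21 alternative settings. Asic5 was called in 17 of the 20 that could test it, and lost its call without Grhl2KO_Myc 4 and without the 3 libraries low in proximal tubule transcripts (edgeR adjusted p = 0.0514 and 0.0769), with the third loss given at the end. Fgfr3 was called in 20 of 21, all but the fit without Grhl2KO_Myc 4, and Vwa5b2 over Myc in 18 of 21, with losses without Myc 2 or Myc 3. The calls of Fgfr4, Fgfr1, Shh and Gng7 held in 15, 9, 11 and 10 of the 21. Among the single libraries left out, Fgfr4 lost its call without Grhl2KO_Myc 1, 2 or 3 or wildtype 3, and Fgfr1 without any 1 Grhl2KO_Myc library, Myc 2 or wildtype 1, 2 or 3. Shh lost it without Grhl2KO_Myc 1, 3 or 4, Myc 2 or wildtype 1, 2 or 3, and Gng7 without Grhl2KO_Myc 2, 3 or 4, Myc 3 or wildtype 2, 3 or 5.

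**Figure D5:**
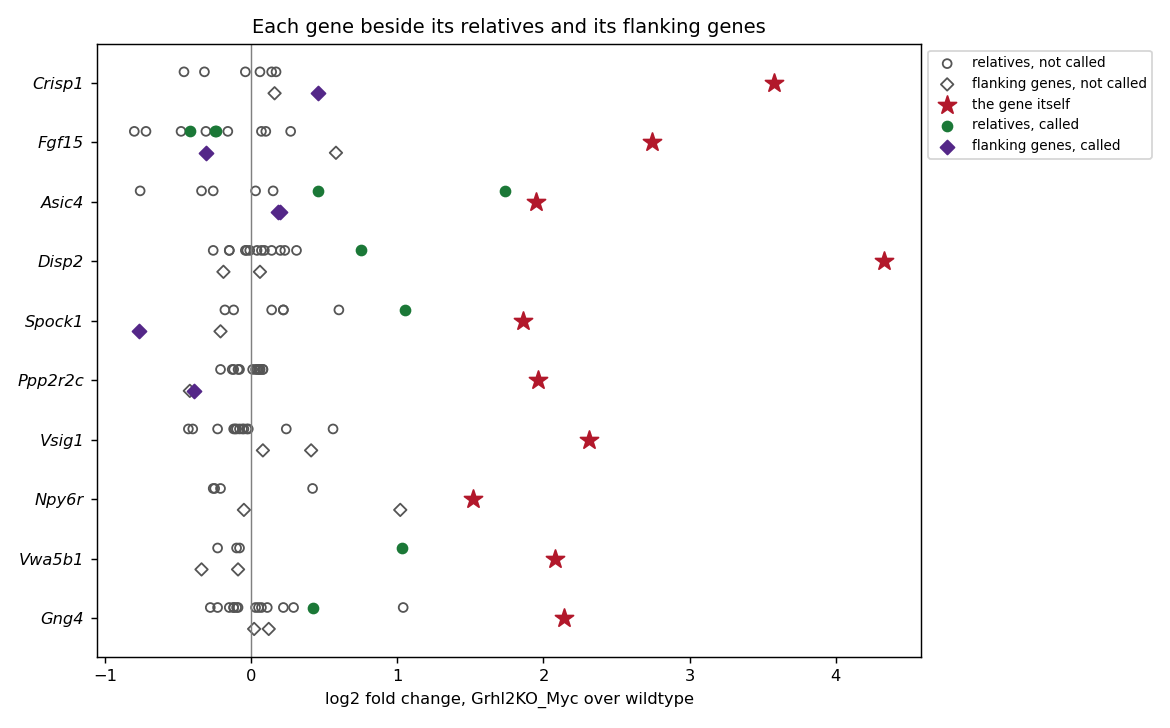
Log2 fold change of Grhl2KO_Myc over wildtype for each of the 10 genes (stars), for its relatives (circles) and for the nearest tested gene on either side (diamonds), with filled symbols for edgeR adjusted p under 0.05. The stars lie at 1.52 or more, and Asic5, at 1.74, is the only relative or neighbour beyond that value.

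The genes on either side of each of the 10 were looked at to see whether the difference spread along the chromosome. Of 20 flanking genes, the nearest tested gene on each side, 3 rose and 3 fell over wildtype, with a median log2 fold change of 0.04, and none passed over Myc by edgeR, where 3 had an unadjusted p under 0.05 and DESeq2 called 1, Klhl3. That is 30% called over wildtype, against 6.67% of all genes, at mostly small differences. Over wildtype 8 had an unadjusted p under 0.05 and DESeq2 called 7, adding Spink12, 161.6 kb from Npy6r, to those of edgeR. Of all 23742 genes tested, 5212 had an unadjusted p under 0.05 over wildtype and 3161 over Myc. Spink12 had the largest difference of the 20 (1.02, SE 0.29, edgeR adjusted p = 0.0561). It was at 1.24 ± 0.198 CPM in Grhl2KO_Myc, 1.32 ± 0.386 CPM in Myc and 0.608 ± 0.241 CPM in wildtype. Klhl3, 91.9 kb from Spock1 and known as part of a ubiquitin ligase that controls salt transport in the distal nephron, was lower (-0.77, SE 0.14, adjusted p = 0.00665), at 5.43 ± 0.576 CPM in Grhl2KO_Myc, 8.82 ± 1.48 CPM in Myc and 9.29 ± 1.46 CPM in wildtype, in the direction opposite to Spock1. The other called neighbours changed by less than 0.5 on the log2 scale. They were Gmppa (0.18, adjusted p = 0.0222) and Chpf (0.20, adjusted p = 0.0415) beside Asic4, 9130008F23Rik (0.46, adjusted p = 0.0269) beside Crisp1, Ccnd1 (-0.31, adjusted p = 0.0268) beside Fgf15 and Wfs1 (-0.39, adjusted p = 0.0395) beside Ppp2r2c. Klhl3 kept its call in all 21 alternatives. The calls of Gmppa, 9130008F23Rik, Ccnd1, Chpf and Wfs1 held in 14, 13, 14, 6 and 6 of the 21. Among the single libraries left out, Gmppa lost its call without Grhl2KO_Myc 1, 3 or 4 or wildtype 2, and 9130008F23Rik without these or wildtype 3. Ccnd1 lost it without Grhl2KO_Myc 1, 2 or 3 or wildtype 1 or 2. Chpf and Wfs1 each lost it without any 1 of 10 of the 12 libraries, Chpf keeping it only without Grhl2KO_Myc 1 or wildtype 4 and Wfs1 only without wildtype 3 or 4. Chpf ends 0.2 kb from the end of Asic4, the shortest gap of the set.

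Markers of tissues from which some of the 10 genes are known were counted to see whether a wider programme differed with these genes. No tissue is given here for Npy6r, Disp2, Gng4 and Vwa5b1. For the epididymis, the tissue of Crisp1, 0 of 6 tested genes of 20 listed passed in edgeR over wildtype. Beside 5212 of all 23742 genes tested, 1 of the 6 had an unadjusted p under 0.05, and DESeq2 called 0. In that list 5 genes (Crisp4, Lcn5, Lcn9, Cst11 and Ovch2) were at 0 in every library, and the summed level was 3.76 to 4.56 CPM in Grhl2KO_Myc, 4.00 to 4.54 CPM in Myc and 3.58 to 5.44 CPM in wildtype. For the small intestine, the tissue of Fgf15, 1 of 11 rose. This was Guca2a, which encodes guanylin, a peptide that acts on guanylate cyclase C, at 6.22 ± 0.195 CPM in Grhl2KO_Myc, 3.26 ± 0.862 CPM in Myc and 1.55 ± 0.346 CPM in wildtype (log2 fold change 2.00, SE 0.18, edgeR adjusted p = 9.87e-05 over wildtype, and 0.93, SE 0.20, adjusted p = 0.0582 over Myc). It was called over wildtype in all 21 alternatives. For the stomach, the tissue of Vsig1, 0 of 6 rose and 1 fell by edgeR, the protease gene Ctse, which was also the only one with an unadjusted p under 0.05 and the only one called by DESeq2 (-1.27, adjusted p = 0.0329), at 4.12 ± 1.78 CPM in Grhl2KO_Myc, 9.78 ± 2.07 CPM in Myc and 9.94 ± 2.48 CPM in wildtype. Its call held in 12 of 21 alternatives and was lost, among others, without Grhl2KO_Myc 1, 2 or 3 or without wildtype 1, 2, 3 or 5.

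All 20 genes of the neuron and neuroendocrine list were tested, and none was at 0 in all 12 libraries. Their summed level was 77.9 to 183 CPM in Grhl2KO_Myc, 55.3 to 60.8 CPM in Myc and 49.8 to 76.4 CPM in wildtype. The lowest level of Stmn3 was 0 CPM in each group, and that of Cplx1 was 0 CPM in wildtype. Over wildtype 3 of the 20 rose and 0 fell by edgeR, with a median log2 fold change of 1.12. An unadjusted p under 0.05 was found for 11, beside 5212 of all 23742 genes tested, and DESeq2 called 6. Without Grhl2KO_Myc 2 the median was 0.11, and 2 of 17 tested rose. Those 2 were Elavl4, an RNA binding protein of neurons, and Eno2, the neuronal form of enolase. In that fit the log2 fold change was 0.54 for Elavl4 (edgeR adjusted p = 0.00786) and 1.0 for Eno2 (adjusted p = 0.0233). With all 12 libraries it was 0.61 for Elavl4 (SE 0.09, edgeR adjusted p = 0.00279) and 0.97 for Eno2 (SE 0.19, adjusted p = 0.0117). Eno2 was at 28.6 ± 1.87 CPM in Grhl2KO_Myc, 12.7 ± 1.06 CPM in Myc and 14.6 ± 5.48 CPM in wildtype. The third, Tubb3, a tubulin of neurons (3.51, adjusted p = 0.0489), was at 6.46 CPM in Grhl2KO_Myc 2 and its call held in 7 of 20 alternatives, lost among others without that library or any 1 of 9 others, all but Grhl2KO_Myc 1 and 3. Over Myc only Eno2 passed (1.17, SE 0.23, edgeR adjusted p = 0.0347), in 12 of 21 alternatives, and it lost that call, among others, without any 1 Grhl2KO_Myc or Myc library or wildtype 1. In all, 4 of 43 tested tissue genes rose and 1 fell over wildtype by edgeR, 11.6% against 6.67% of all genes.

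Outside the set, the genes with the profile most like the mean of the 10 over the 12 libraries were sought among 14607 genes whose mean reached 1 CPM in 1 group or more. They were Jph4, which encodes a junctophilin of brain, with a root mean square difference of 0.225, Slc4a5, a sodium bicarbonate cotransporter, with 0.249, Gucy2e, a guanylate cyclase of the retina, with 0.282, Ccr4, a chemokine receptor of T cells, with 0.292, and Spock3 with 0.297. Slc4a5 was the most abundant, at 19.1 ± 1.44 CPM in Grhl2KO_Myc, 7.93 ± 1.05 CPM in Myc and 5.26 ± 0.351 CPM in wildtype. Jph4 was at 5.23 ± 0.589 CPM in Grhl2KO_Myc, 1.93 ± 0.204 CPM in Myc and 1.66 ± 0.321 CPM in wildtype. In all 5 genes the lowest Grhl2KO_Myc library was above the highest library of the other groups, which follows from how they were sought.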

How the data were processed

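For 12 libraries, the authors deposited unnormalised whole-number counts of reads by gene, with a further column for the exon width of each gene in bases. Reads were aligned with HISAT2 to mm10, per the submitters' processing notes. How reads were counted, with which annotation and with what rule for multimapping reads, is not given in these sources. Libraries were made with the TruSeq RNA kit version 2, per the labels' protocols, and this kit does not mark strand. Columns were matched to samples by the identifier in each title, and 0 columns belonged to other samples.

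From these counts, CPM after TMM scaling and log2 fold changes were computed with edgeR 4.0.16 in R 4.3.3 (limma 3.58.1 is loaded with it). The default expression filter of edgeR left 23742 of 46403 genes. All 12 libraries entered 1 quasi-likelihood fit with a coefficient per group, and genes were called at a Benjamini-Hochberg adjusted p under 0.05 over all genes tested. Standard errors were derived from the fold change and its test statistic. The script was tested on simulated counts first. The 10 genes and the lists were chosen with earlier results of these data known, so the contrasts with Grhl2KO_Myc carry no test of these 10. Genes outside the set were named where they were called in either contrast with Grhl2KO_Myc, and for likeness the 5 nearest profiles were named, with numbered models and pseudogenes left out. Coordinates come from GENCODE M21, in which 90.6% of symbols were found, and promoters from the RefSeq table on GRCm38.p6. DESeq2 1.42.0 and the other alternatives are given at the end. Replicates of a group differed by more than sampling noise, so each library counted once.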

Additional observations from a re-analysis of the deposited data

Results flagged for a closer look

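Values of the 10 genes in the groups of 4 and 5 libraries were searched for a library far from the rest of its group, which covers 20 groups of values, and 2 met the limit of Dixon's test at the 95% level. Chance alone flags about 1 in 20 groups. Both came from library Grhl2KO_Myc 2. Disp2 was at 4.44 CPM there, against 0.474 to 1.09 CPM in the other 3 Grhl2KO_Myc libraries. Spock1 was at 3.50 CPM there, against 1.20 to 1.58 CPM in the other 3. The same library had the highest level of 16 of the 20 neuron and neuroendocrine genes, and the part of this in the 2 values was not tested.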

How the results depend on the processing

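The median log2 fold change of the 10 genes stayed within the spread between replicates in all 21 alternatives, at 2.01 to 2.15 over wildtype and 1.85 to 2.12 over Myc, and at 1.97 to 2.30 and 1.89 to 2.23 when each library was left out in turn. The filter of 1 CPM in 3 libraries removed Disp2 and Ppp2r2c. Counts of called genes moved more, and the cause was not tested. For Grhl2KO_Myc against wildtype, 1584 genes became 2648 with DESeq2, 995 in a fit of only the groups compared, 2398 with the proximal tubule covariate, 998 with a sex term and 945 with the replicate block, and 750 (without Grhl2KO_Myc 4) to 3778 (without wildtype 4) without single libraries. For Grhl2KO_Myc against Myc, 200 became 762 with DESeq2, 318 without the 3 libraries low in proximal tubule transcripts and 88 with the replicate block, and 70 (without Myc 2) to 703 (without wildtype 4) without single libraries. For Myc against wildtype, 1 became 43 with DESeq2 and 0 in the fit of only the groups compared, the sex-term fit and the replicate block fit, and 0 to 6 without single libraries. Relatives called over wildtype (9) became 17 with DESeq2 and 5 with the block, and 4 to 23 without single libraries. Relatives called over Myc (2) became 8 with DESeq2 and 1 with the block, and 0 to 7 without single libraries. Tissue genes called over wildtype (5) became 8 with DESeq2, 3 in the fit of only the groups compared and 14 without the 3 libraries, and 3 to 7 without single libraries. Flanking genes called over wildtype (6) became 3 in the fit of only the groups compared, 3 with the sex term and 1 with the block, and 1 to 7 without single libraries. Flanking genes called over Myc (0) became 1 with DESeq2, 1 in the fit of only the groups compared and 1 without the 3 libraries, and 0 to 2 without single libraries. Of the 10 genes, 0 were called in Myc against wildtype, 1 with DESeq2, and 0 to 0 without single libraries.

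Of the log2 fold changes of single genes among the 10, 615 stayed within the spread between replicates, whether or not a call was kept. Another 8 moved by more than that spread and kept their sign, with shifts towards 0 among them. The last 1 (Gng4 in Myc against wildtype with DESeq2) was newly called. Samples with the same replicate number deviated together with correlations of -0.11 to 0.23, so the numbers were not taken to pair the libraries, and the blocked medians of the 10 genes were 2.08 over wildtype and 2.12 over Myc. With the block, Asic5 over wildtype and Vwa5b2 over Myc lost their calls (edgeR adjusted p = 0.0711 and 0.0776). Depth limits the least counted levels, above all Disp2 in wildtype.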

Other observations

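Grhl2KO_Myc 3 had Ddx3y at 0 CPM and Xist at 0.213 CPM, a pair of low values that no other library showed. It was the highest of its group for 6 of the 10 genes. Without it, the median log2 fold change of the 10 genes over wildtype was 1.97.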
